A study of Mus musculus with 6 samples.

Results

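The SIBLING genes encode a family of small integrin-binding glycoproteins that are secreted into mineralized matrix, and 5 of them lie side by side on mouse chromosome 5. The genes described here are these 5, Spp1 (osteopontin), Dmp1 (dentin matrix protein), Ibsp (bone sialoprotein), Mepe (matrix extracellular phosphoglycoprotein) and Dspp (dentin sialophosphoprotein), together with Cd44 on chromosome 2, which encodes a cell surface receptor for hyaluronan that also binds osteopontin. They were chosen by symbol, as 6 of the 22105 gene rows in the deposited read counts, and with their change in these libraries already known. RNA was sequenced from 4T1 cells, a cultured line of mouse mammary carcinoma, after 24 h with the vehicle DMSO or with 10 µM P3FI-90, a small-molecule inhibitor of the histone demethylase KDM3B. Each group had 3 libraries of the same line, and nothing in the labels says whether these were separate cultures, so the tests measure the spread between libraries, which may be technical.

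SIBLING proteins are acidic and heavily phosphorylated, and each carries an RGD motif through which it can bind integrins. In bone and teeth they regulate the growth of mineral crystals, and osteopontin in addition is a cytokine made by many epithelial tumours, including mammary carcinomas, where it acts on tumour cells, macrophages and T cells. Osteopontin is cut by matrix metalloproteinases and thrombin, and cross-linked by transglutaminase, which changes the integrins it can engage.

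Gene totals were 31327094 to 37395732 counts per library. Values are given as normalized counts, which are counts scaled by edgeR's TMM factors to the mean library, and, where levels of different genes are compared, as RPKM, the usual rate per kilobase of exon, computed with the same scaled library sizes. Of the 12288 genes that passed edgeR's filter on low counts, 4908 were higher and 4841 lower after P3FI-90 at an adjusted p under 0.05, with a median log2 fold change of 0.01 over all of them. With libraries scaled by total counts in place of TMM the split was 6179 higher and 3641 lower and the median 0.23. The 6 epithelial markers Krt8, Krt18, Krt7, Epcam, Cdh1 and Cldn7 together had 142164 to 149529.5 normalized counts in each DMSO library against 58097 to 61025 in each treated library, and all 6 fell. The osteoblast-lineage markers Sp7, Bglap and Sost, and the leukocyte markers Adgre1, Itgam and Cd3e, were at 0 or within 8 counts in every library. The 8 leukocyte markers together reached 398 to 496 normalized counts in DMSO libraries against 406 to 516 in treated ones, mostly Cd68, and Csf1r alone rose. Of 5 fibroblast markers Pdgfra alone was tested and fell, with Lum and Thy1 at 0. The part of these marker levels in the results below was not tested, and in bulk RNA fewer expressing cells and less RNA per cell cannot be told apart.

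The promoters of the genes with the largest falls among the 6 are shown first, because their sequences share features that the choice of genes did not use. RefSeq windows from 250 bases before to 50 bases after a start site were at hand for 5 of the 6 genes, Dspp being the exception. Spp1 and Dmp1 each had 2 such windows. For each of them only the window whose start site lay nearest the gene start in GENCODE M21 was used. The bases before the start site are printed 5′ to 3′ for Spp1 (GRCm38.p6, plus strand, chr5:104434861-104435110), for Dmp1 (plus strand, chr5:104202367-104202616) and, as a contrast, for Cd44 (minus strand, chr2:102901666-102901915). Capitals mark the motifs and shared words described after them.
Spp1: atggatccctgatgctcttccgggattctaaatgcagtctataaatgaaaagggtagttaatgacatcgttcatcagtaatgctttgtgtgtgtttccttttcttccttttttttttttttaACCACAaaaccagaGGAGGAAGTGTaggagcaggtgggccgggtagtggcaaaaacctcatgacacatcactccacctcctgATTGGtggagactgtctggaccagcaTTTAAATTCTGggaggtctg
Dmp1: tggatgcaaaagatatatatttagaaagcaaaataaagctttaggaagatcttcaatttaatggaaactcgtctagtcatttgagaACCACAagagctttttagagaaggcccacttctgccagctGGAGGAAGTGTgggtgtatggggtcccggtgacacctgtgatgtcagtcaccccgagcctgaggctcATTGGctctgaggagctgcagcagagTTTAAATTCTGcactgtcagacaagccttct
Cd44: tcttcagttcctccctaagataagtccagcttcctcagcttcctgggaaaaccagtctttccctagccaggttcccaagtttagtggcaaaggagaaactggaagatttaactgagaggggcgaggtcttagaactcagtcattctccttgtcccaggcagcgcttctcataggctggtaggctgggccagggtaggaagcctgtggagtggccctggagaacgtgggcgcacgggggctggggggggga

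The Spp1 and Dmp1 windows had 2 words of at least 9 letters in common on the same strand. The word GGAGGAAGTGT began 114 bases before the start site of Spp1 and 124 before that of Dmp1, and on either strand it was in 49 of all 32851 windows (0.149%). The word TTTAAATTCTG began 20 bases before the start site in Spp1 and 31 in Dmp1, and was in 15 windows (0.0457%). Among all windows, 2 held both words, those of Spp1 and Dmp1, from which the words were read. The other annotated window of each of these genes did not hold both words. The motifs were chosen after the sequences were seen and were searched on both strands. The TATA-like TTTAAA (13.2% of windows) and the ETS core GGAAGT (23.8%) lie inside the shared words. The inverted CCAAT box ATTGG (37.4%) began 26 bases upstream of TTTAAA in both genes, and the ETS core lay 65 bases upstream of ATTGG in Spp1 and 64 in Dmp1. The RUNX core TGTGGT (16.8%), read on the minus strand as ACCACA, was 17 bases upstream of the ETS core in Spp1 and 43 in Dmp1. Together these 4 motifs occurred in 67 windows (0.204%), with neither order nor spacing required. That share is near the product of the 4 single shares. Ibsp held the inverted CCAAT box, and Mepe held it with 2 RUNX cores. The TTTAAA of Mepe lay after the start site, at positions 6 to 11, unlike those of Spp1 and Dmp1. Cd44 held none of the 4 exact strings, although its printed window does hold the shorter GGAA. The AP-1 motif TGANTCA (7.81%) was in none of the 5 windows. Matching letters are a description of these windows, and no binding was measured here.

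**Figure D1:**
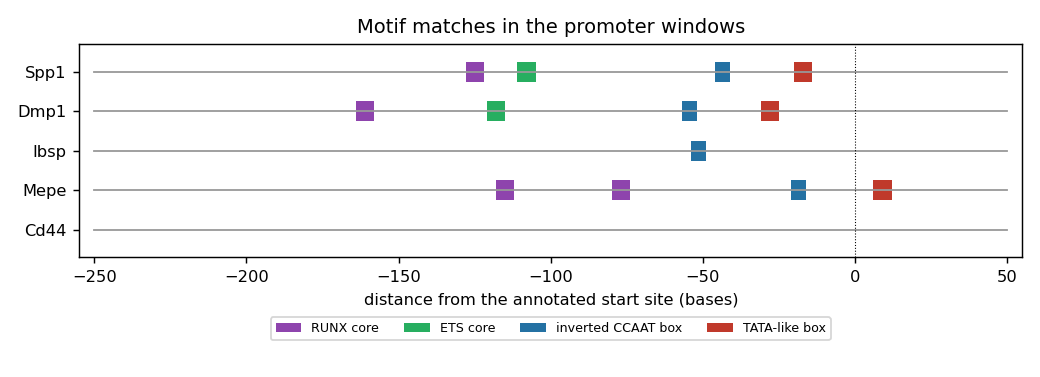
Motif matches in the promoter windows of 5 genes. The horizontal axis is the distance from the annotated start site in bases, each row is a gene and each coloured block is a match on either strand. The windows used for Spp1 and Dmp1 hold the 4 motifs in the same order, with 26 bases between the starts of the inverted CCAAT box and the TATA-like box in both.

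Osteopontin was by far the most abundant SIBLING transcript. Spp1 (ENSMUSG00000029304) had 27348, 27800.2 and 26075 normalized counts in the DMSO libraries and 1622, 1704 and 1637 after P3FI-90. The highest treated library was thus 15.3-fold below the lowest DMSO library, while the coefficient of variation within a group was 3.3% in DMSO and 2.65% after P3FI-90. The means were 27074.5 ± 894.5 and 1654 ± 43.8 (SD, n = 3), a 16.4-fold lower level and a log2 fold change of -4.03 (SE 0.04). Since the genes were chosen with this contrast known, these differences are descriptions and carry no p.

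On the RPKM scale Spp1 went from 468.5 ± 15.5 to 28.6 ± 0.758 (SD, n = 3). That placed it 79th in DMSO and 1842nd after P3FI-90 among the 15598 genes with an RPKM above 0 in either group. Its transcript was thus still well above the typical gene in treated cells. Among the 6842 tested genes with a DMSO mean of at least 1000 normalized counts its fall was the 2nd steepest, and it was also the 2nd steepest among the 668 genes with at least 10000. Spp1 made up 99.5 to 99.7% of the SIBLING counts in a DMSO library and 99.7 to 100% in a treated library. It took 0.0691 to 0.0737% of all gene counts of a DMSO library and 0.00498 to 0.00523% of a treated one. In GENCODE M21, 11.6% of the 50-base windows of Spp1 transcripts are shared with Gm42793, an overlapping locus not analysed here.

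Dmp1, which encodes an acidic protein of bone and dentin that osteocytes make, was present at a low level. Dmp1 (ENSMUSG00000029307) had 109, 86.7 and 125 normalized counts in the DMSO libraries (108, 72 and 122 counts) and 2, 0 and 0 counts after P3FI-90. All 3 DMSO libraries thus lay far above the treated ones, where the transcript was at or near the limit of detection. Over the groups, 302 counts stood against 2, a ratio of 173 with an exact Clopper-Pearson 95% interval of 47.4 to 1433 that covers counting error only. Both treated counts came from the library of P3FI-90 replicate 1. Without it Dmp1 was at least 76.7-fold lower against a floor of 3 counts over the group, or 38.4-fold against 6 counts, a floor given because reads of a pair may each have been counted. The fitted log2 fold change was -7.16 (SE 0.57), or -9.72 without that library, and depends on the prior count.

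The level of Dmp1 per length in DMSO was 1.10 ± 0.196 RPKM (SD, n = 3), against 468.5 for Spp1. Among the 10475 tested genes with a DMSO mean of at least 100 normalized counts, none had a steeper fitted fall. That rank rests on the cut, which lies just under the Dmp1 mean of 106.8. Below it Mgp, with a DMSO mean of 46.1, had a fitted log2 fold change of -8.53. The rank describes a gene chosen with this contrast known. None of its 50-base transcript windows occurred in another gene.

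The other 3 SIBLING genes, which mark bone and dentin cells, were at or near 0. Ibsp (ENSMUSG00000029306) had 3, 2 and 0 counts in DMSO and 3, 0 and 0 after P3FI-90, too few to show a difference at this depth (ratio 1.91, 95% counting interval 0.371 to 12.3). Mepe (ENSMUSG00000053863) and Dspp (ENSMUSG00000053268) were at 0 in all 6 libraries. A count of 0 allows up to 0.0802 to 0.0958 CPM in a library, so transcripts below that level would not have been detected.

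The transcript of the receptor was abundant in both groups. Cd44 (ENSMUSG00000005087) had 13429, 14468 and 13852.5 normalized counts in DMSO and 15007, 13911 and 15064 after P3FI-90. The groups overlapped, with the treated replicate 2 below 1 DMSO library. The means were 13916 ± 522.5 and 14660.4 ± 649.8 (SD, n = 3), and the log2 fold change was 0.08 (SE 0.04). Only 894 of the 12288 genes had a smaller absolute log2 fold change. As a share of all gene counts, without TMM, Cd44 took 0.0355 to 0.0384% of a DMSO library and 0.0427 to 0.0463% of a treated library, without overlap, and its log2 fold change scaled by total counts was 0.29. Per length it stood at 58.6 ± 2.20 and 61.7 ± 2.74 RPKM. In DMSO the ligand Spp1 was therefore above its receptor on the RPKM scale, and after P3FI-90 it was below. Gene counts do not separate the standard form of CD44 from those with variant exons.

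**Figure D2:**
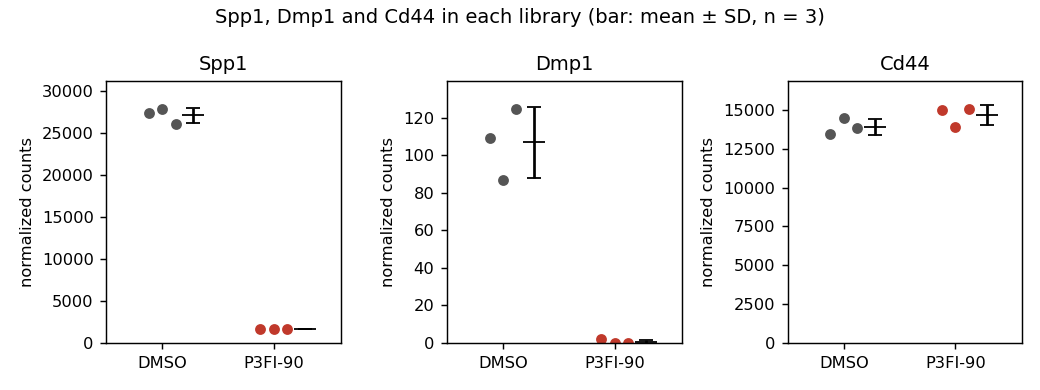
Normalized counts of Spp1, Dmp1 and Cd44 in each library (vertical axes, each starting at 0). Points are libraries, 3 per group, and bars are the mean ± SD. Spp1 lay between 26075 and 27800.2 in DMSO and between 1622 and 1704 after P3FI-90, and the Cd44 groups overlapped.

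Of the 6 genes, 3 passed the filter on low counts, and 2 of these, Spp1 and Dmp1, were lower after P3FI-90 without overlap between groups. Dmp1 passed the filter only through its DMSO libraries, so its direction was largely set by the filter. The background was 40.2% of all tested genes lower without overlap (81.2% without overlap in either direction). Nothing is read from the count because this contrast was used in the choice.

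**Figure D3:**
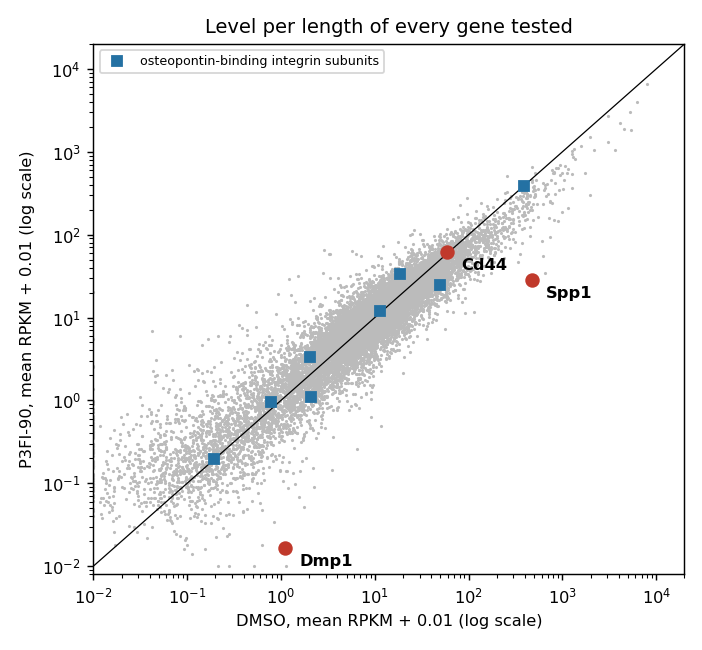
Mean RPKM after P3FI-90 (vertical axis) against DMSO (horizontal axis), both plus 0.01 on log scales, for each tested gene with an exon length (grey). The line marks equal levels, red circles are Spp1, Dmp1 and Cd44, and blue squares are integrin subunits that bind osteopontin. Spp1 fell from 468.5 to 28.6, while Cd44 lay near the line.

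The integrin subunits through which cells bind osteopontin did not move as a block. Of 10 subunits, 8 were tested, 2 rose, 2 fell and 4 did not pass the test, with a median log2 fold change of 0.04, and with total counts 4 were higher. In all tested genes, 39.9% were called higher and 39.4% lower. Itgav, the αv chain of several but not all RGD-binding receptors, rose from 6938 ± 205 to 12735 ± 494 normalized counts (SD, n = 3; log2 fold change 0.88, SE 0.04, adjusted p = 4.75e-11). Its partner Itgb5 (β5) fell from 6139 ± 197 to 3070.4 ± 101, or 2.00-fold (SE of the log2 fold change 0.04, adjusted p = 1.89e-11). Itgb3 (β3), the other classical partner of αv for osteopontin, fell by 0.93 on the log2 scale, and Itgb6 (β6) rose by 0.71. Itgb1, the most abundant subunit, had 55377 ± 1350.2 and 55097 ± 632 normalized counts (log2 fold change -0.01, SE 0.03, adjusted p = 0.802), but was called higher with total counts (0.21, adjusted p = 3.61e-06), against 0.127 to 0.999 under the other alternatives. Itga5 had a log2 fold change of 0.06 (adjusted p = 0.325), and of 0.28 (adjusted p = 0.000457) with total counts. Itga4 and Itga9, the chains that bind osteopontin outside its RGD motif, had at most 6 normalized counts in any library.

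Of the enzymes known to cleave, cross-link or otherwise modify SIBLING proteins, 12 were compared. Of these, 7 were tested, 5 fell (Mmp3, Tgm2, Mmp9, Bmp1 and Acp5), 1 rose (Phex) and 1 did not pass (Mmp2), with a median log2 fold change of -0.51. Over all tested genes 39.4% were lower, 39.9% higher and the median was 0.01. With total counts 4 enzymes fell and 1 rose, with a median of -0.29 against 0.23 over all tested genes. Mmp3, a stromelysin that cuts osteopontin, fell from 1886 ± 64.1 to 532.5 ± 18.1 normalized counts (SD, n = 3; log2 fold change -1.82, SE 0.06, adjusted p = 3.55e-12). Tgm2, the transglutaminase that cross-links osteopontin, fell 2.29-fold, from 2452 ± 171 to 1069 ± 30.7 (adjusted p = 2.02e-10). Mmp9, a gelatinase, fell 1.59-fold and Bmp1, the proteinase that processes Dmp1 and Dspp, fell 1.42-fold (adjusted p = 6.74e-10 and 1.86e-08). Acp5, a phosphatase that removes phosphate from osteopontin, fell by 0.33 on the log2 scale. Phex, an endopeptidase that acts on SIBLING peptides, had 151 to 168 normalized counts over the DMSO libraries against 254.5 to 289 over the treated ones, a rise (log2 fold change 0.79, adjusted p = 0.000122). Fam20c, the kinase that phosphorylates these proteins, and F2 (thrombin) were at 0 in all libraries.

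Transcription factors known to act on SIBLING promoters moved in both directions. Of 14 factors, 11 were tested, 5 rose (Runx2, Runx1, Ets1, Dlx3 and Tcf7l2), 2 fell (Etv4 and Rxra) and 4 did not pass, with a median log2 fold change of 0.36. The share that rose was near the 39.9% of all tested genes called higher. With at least 10 counts in every library, which drops Dlx3, 10 were tested, 4 rose and the median was 0.15. With total counts 7 rose and 2 fell. Runx2, the master factor of osteoblasts, had 1283, 1257 and 1402 normalized counts in DMSO and 2718, 3003 and 3077 after P3FI-90. It rose 2.23-fold without overlap (log2 fold change 1.16, SE 0.06, adjusted p = 4.41e-10), and Runx1 rose 1.78-fold (adjusted p = 4.28e-09). Ets1 rose from 7289 ± 144 to 14113 ± 144 (SD, n = 3; adjusted p = 3.38e-12). The exact strings searched above as RUNX and ETS cores are among those these families recognize, and other strings were not searched. The libraries with less Spp1 and Dmp1 had more Runx1, Runx2 and Ets1 transcript and less of the ETS factor Etv4. No relation between them was tested. Dlx3, a homeobox factor, went from 3.36 ± 2.30 to 29.6 ± 8.06 normalized counts (log2 fold change 3.14, SE 0.58). It passed the filter on low counts only through its treated libraries (41, 31 and 23 counts, against 2, 5 and 2 in DMSO). Its direction was thus largely set by the filter, and no p is given for it. Etv4, an ETS factor of mammary tumours, fell 1.65-fold, from 4497 ± 240 to 2719 ± 153 (adjusted p = 1.14e-08). Jun, Fos, Vdr and Gli1 did not pass the test, and the osteoblast factors Sp7, Dlx5 and Msx2 were at 0 throughout.

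Genes that control phosphate, pyrophosphate and mineral were next compared, since SIBLING proteins act on mineral. Of 12, 8 were tested, 3 fell, 1 rose and 4 did not pass, with a median log2 fold change of -0.52. The share that fell was near the 39.4% of all tested genes called lower. Ankh, which exports pyrophosphate and is listed as Ank, fell 2.70-fold from 6620.1 ± 170.1 to 2456 ± 65.0 normalized counts (SD, n = 3; adjusted p = 3.97e-13). Enpp1, which makes pyrophosphate from ATP, fell 2.28-fold from 294 ± 38.2 to 129 ± 22.7 (adjusted p = 1.52e-05). Mgp, matrix Gla protein, had 56.7, 54.2 and 27.6 normalized counts in DMSO and 0 in all treated libraries, at least 48.8-fold lower against 3 counts over the group or 24.4-fold against 6. Mgp passed the filter on low counts only through its DMSO libraries, so its direction was largely set by the filter. With at least 10 counts in every library, which drops Mgp, 7 were tested, 2 fell, 2 rose and the median was -0.26. Slc20a1, a phosphate transporter, rose 1.77-fold (adjusted p = 7.15e-11), and its relative Slc20a2 had a log2 fold change of 0.10 (adjusted p = 0.0569), with an adjusted p from 2.01e-05 with total counts to 0.219 with upper quartiles. It passed the test with total counts, DESeq2 size factors, the stricter filter, the DESeq2 test, and without DMSO replicate 3 (0.14, adjusted p = 0.0148).

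The genes that act with CD44 were compared next. Of 14, 13 were tested, 10 fell, 2 rose and 1 did not pass, with a median log2 fold change of -0.39, and with total counts 7 fell and 3 rose. The background was 39.4% lower and 39.9% higher, or 79.3% called in either direction. Msn (moesin), which links the tail of CD44 to actin, fell from 56177 ± 47.0 to 26180.3 ± 210.2 normalized counts (SD, n = 3; log2 fold change -1.10, SE 0.02, adjusted p = 7.73e-14). Its relatives moved less. Rdx (radixin) rose 1.28-fold (adjusted p = 2.84e-07), and Ezr (ezrin) had a log2 fold change of -0.10 (adjusted p = 0.00945) that turned to 0.11 with total counts. Esrp2, an epithelial splicing factor that promotes inclusion of the variant exons of Cd44, fell 2.74-fold from 2027 ± 29.8 to 741 ± 13.9 (adjusted p = 9.45e-12). Its paralogue Esrp1 fell by 0.39 on the log2 scale. Hmmr, another hyaluronan receptor, fell 1.20-fold (adjusted p = 4.31e-05, and 0.288 with total counts). Has2, which synthesizes hyaluronan, fell by 0.86 on the log2 scale, and so did Adam17 by 0.93 and Mmp14 by 0.87, proteases that shed CD44. Hyal1, a hyaluronidase, rose from 106 ± 30.0 to 712 ± 75.4 (log2 fold change 2.74, adjusted p = 1.62e-09). The Hyal1 value is uncertain, since 49.7% of its 50-base windows are shared, mainly with Naa80 and Hyal3.

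**Figure D4:**
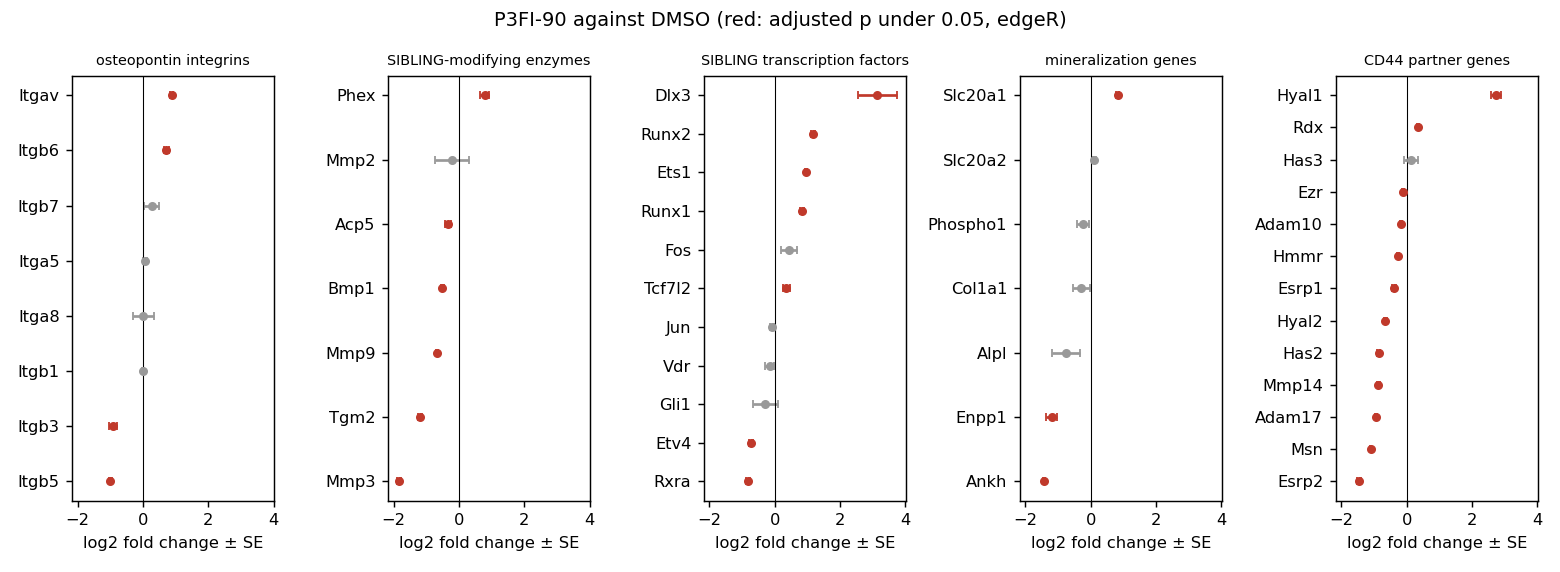
Log2 fold change of P3FI-90 against DMSO (horizontal axes) with its SE for the tested genes of 5 lists, in red where the adjusted p was under 0.05 in edgeR and grey otherwise. Mgp, at 0 in all treated libraries, is not drawn. Runx2 (1.16) and Ets1 (0.95) lie right of 0, while Mmp3 (-1.82), Ankh (-1.43) and Esrp2 (-1.45) lie left of it.

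The wider family of secretory calcium-binding phosphoproteins, to which SIBLING genes belong, was nearly silent, unlike Sparc, a related gene listed beside it. Of 12 relatives, 11 were matched to the counts, 7 were at 0 in all libraries and 2 were tested. Sparc (osteonectin) fell 1.82-fold from 10652 ± 24.6 to 5843 ± 212 normalized counts (SD, n = 3; log2 fold change -0.87, adjusted p = 2.57e-11). Csn3, κ-casein of milk, had 0 counts in all DMSO libraries and 26.2, 32.4 and 44.1 normalized counts after P3FI-90, at least 31.8-fold higher against 3 counts over the group or 15.9-fold against 6. Csn3 passed the filter on low counts only through its treated libraries, so its direction was largely set by the filter. The enamel genes Ambn, Amtn and Amelx and the caseins Csn1s1 and Csn2 were at 0.

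No tested neighbour of the cluster fell as far as Spp1 or Dmp1. RefSeq places Hsd17b13, Hsd17b11, Nudt9, Gm17660 and Sparcl1 before Dspp, and Pkd2, Thoc2l, Zfp33b, Gm31255 and Gm20385 after Spp1. Of these 10 neighbours, protein-coding in RefSeq, 8 were matched to the counts and 4 were tested, with 2 lower, 1 higher and 1 not past the test, and with 1 lower and 2 higher under total counts. Pkd2, a calcium channel next to Spp1, had 3085, 2929 and 3033 normalized counts in DMSO and 2860.5, 2677 and 3042 after P3FI-90. Its groups overlapped (log2 fold change -0.08, SE 0.05, adjusted p = 0.188). Pkd2 passed the test as higher with total counts (0.14, adjusted p = 0.0267) and as lower without P3FI-90 replicate 3 (-0.13, adjusted p = 0.0446). The row of Thoc2l, the gene after Pkd2, has an identifier (ENSMUSG00000097392) that GENCODE M21 lists as a lincRNA, so which transcript its counts measure is uncertain. It had 588, 690.1 and 687 in DMSO and 2830, 2581.5 and 2872 after P3FI-90. It rose 4.22-fold without overlap (log2 fold change 2.08, SE 0.07, adjusted p = 3.27e-12). On the far side, Hsd17b11, a steroid dehydrogenase of lipid droplets, fell 2.01-fold from 1211 ± 97.3 to 602 ± 62.2 (SD, n = 3; adjusted p = 8.15e-08). Nudt9, an ADP-ribose pyrophosphatase, fell 1.18-fold (adjusted p = 0.000475), with an adjusted p of 0.702 under total counts. Hsd17b13 and Gm17660 were at 0, and Sparcl1 and Zfp33b had at most 10 counts in any library.

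**Figure D5:**
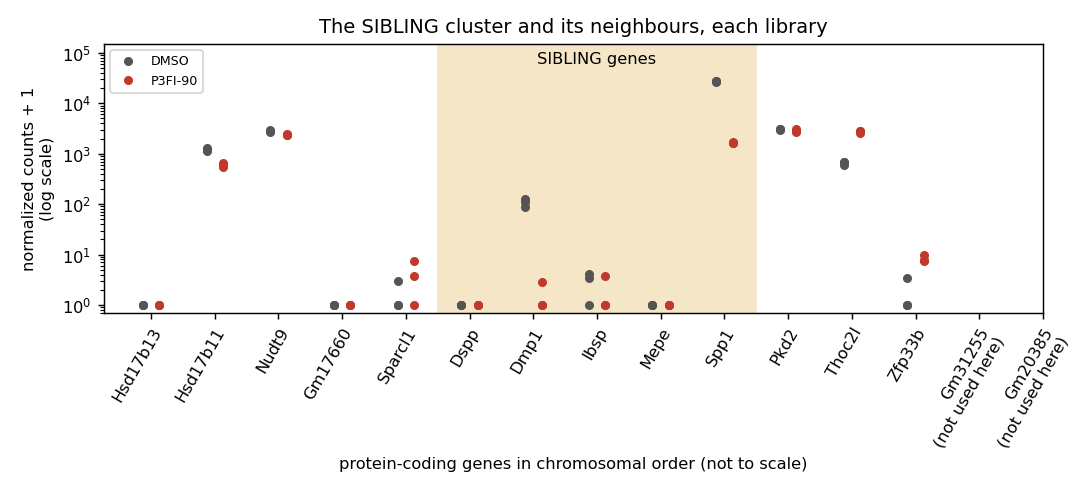
Normalized counts plus 1 on a log scale (vertical axis) for the SIBLING genes (shaded) and their neighbours in chromosomal order (horizontal axis, not to scale). Points are libraries, 3 per group. Spp1 and Dmp1 drop after P3FI-90, Pkd2 next to Spp1 overlaps between groups and Thoc2l rises.

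The genes whose log2 CPM followed Spp1 most closely over the 6 libraries were the chaperones Hsp90ab1 and Hspa8 and the nucleolar protein gene Ncl, with Pearson r between 0.9999 and 1.0000 among 10571 candidates. Their log2 fold changes were -1.62, -2.85 and -1.48, smaller than that of Spp1. For Dmp1 they were Kdelr1, Tmem198b and Rplp2 (r of 0.9996, 0.9996 and 0.9996), and for Cd44 Mbtd1, Fanci and Ppp2r5e (r of 0.9933, 0.9810 and 0.9787). For Spp1 and Dmp1 these coefficients mostly reflect the gap between the groups, which many genes share, and they are descriptions without a test.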

How the data were processed

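RNA of 4T1 cells was sequenced with an mRNA-Seq kit on a NovaSeq instrument, 3 libraries per group. The authors deposited counts of reads per gene as whole numbers without normalization. The submitters' processing notes name CASAVA, HISAT2, StringTie and GRCm39. The versions, annotation release, strandedness and the rule for counting read pairs are not given in the sources used here. If both mates were counted, counts are not independent and intervals are too narrow. Of 22401 rows, 285 rows of assembled transcripts (0.483 to 0.556% of the counts) and 11 transcript rows at 0 were left out.

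Counts were filtered with filterByExpr, scaled by TMM and tested with edgeR 4.0.16 (R 4.3.3), using the quasi-likelihood test with Benjamini-Hochberg adjustment over all 12288 genes. Every adjusted p in the text is from that test unless an alternative is named. The study itself used limma. The common biological coefficient of variation was 0.0648, and 3 libraries against 3 cannot give an exact permutation p below 0.1. Chi-square values per gene between libraries of the same group were 5.51 to 8.47, above sampling noise. Such a spread may be technical and does not show that the libraries were separate cultures. Each library was treated as a replicate. Exon lengths and shared 50-base windows came from GENCODE M21, which held 21995 of the 22105 identifiers, and promoters and gene order from RefSeq on GRCm38.p6. Because the counts were made on another build, no coordinates other than those of the promoters are given.

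The genes, lists, markers and motifs were chosen with earlier results of these data known. In each list the 4 genes with the highest mean, those with an adjusted p under 0.05 and an absolute log2 fold change over 1, and every chromosomal neighbour were named by rule. For genes with at least 10 normalized counts, the 3 most correlated genes with a mean of at least 100 were named (log2 CPM, prior count 2). Other list genes were named after their values were seen. The summed level of the osteoblast markers is not reported here. Alternatives were other scalings (DESeq2 1.42.0 size factors, total counts, upper quartiles), other filters, DESeq2, limma-voom (limma 3.58.1), a replicate block and leaving out each library.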

Additional observations from a re-analysis of the deposited data

How the results depend on the processing

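Across the alternatives, 250 of the values compared for whole groups of genes or for Spp1, Dmp1 and Cd44 stayed within the spread or within 1.5 times the count, and 15 did not. Total counts gave log2 fold changes of -3.82 for Spp1 and 0.29 for Cd44, 4 higher integrin subunits, 2 higher mineralization genes, and 2 higher and 1 lower chromosomal neighbours. They turned Ezr to 0.11, Itgb1 to 0.21 and Pkd2 to 0.14, by construction raising all genes by about the same amount. The number of higher mineralization genes was also 2 with DESeq2 size factors, no filter, at least 10 counts in every library or the DESeq2 test; without a filter the added gene was not Slc20a2. At least 10 counts in every library left 0 higher relatives of the wider family and gave no value for Dmp1. Itgb1 stood at 0.0025 with DESeq2 size factors, 0.0025 with the DESeq2 test and 0.011 with the stricter filter, each within its SE of 0.

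Leaving out each library in turn gave log2 fold changes of -4.06 to -4.02 for Spp1, 0.05 to 0.11 for Cd44 and -9.72 to -6.63 for Dmp1, 1 to 2 higher mineralization genes and 4 to 6 higher transcription factors (4 without DMSO replicate 1 or 2 or P3FI-90 replicate 1). Without DMSO replicate 2 or P3FI-90 replicate 1, Itgb1 stood at 0.0043 and 3.28e-05, and over all such fits it ranged from -0.0298 to 0.0043. The replicate numbers only name libraries: deviations of equally numbered libraries correlated by -0.0214, 0.015 and 0.00491. With the replicate number as a block, 4802 genes were higher and 4722 lower. Ibsp, Mepe and Dspp were not compared across alternatives. The counts limit what can be said of Ibsp, Mepe, Dspp and, in treated cells, Dmp1.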
